A study of Mus musculus with 6 samples.

Results

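The genes described here encode the electrical and mechanical junctions of the intercalated disc: the connexins Gja1, Gja4, Gja5 and Gjc1, the desmosome genes Dsp, Pkp2, Dsg2, Dsc2 and Jup, and Xirp1, which encodes the actin-binding protein Xin. They were chosen by symbol for their known place in junctions, with earlier results of these data known. All 10 were found among the 18951 genes of the count table. RNA sequencing covered 3 cultures labelled si-Rbm22, transfected with an siRNA against the spliceosome gene Rbm22, and 3 labelled si-Control, transfected with a scrambled siRNA. Both groups are labelled as heart muscle cells isolated from 1-day-old C57BL/6 mice, with no other genetic change, kept in primary culture and collected 48 h after transfection. Each library gave a read count per gene.

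The intercalated disc joins heart muscle cells end to end. Desmosomes hold the cells together: the desmosomal cadherins (desmogleins and desmocollins) bind across the gap, the armadillo proteins plakoglobin and plakophilin gather beneath them, and desmoplakin ties the plaque to intermediate filaments. Gap junctions, built of connexins, pass current and small molecules from cell to cell, and different connexins are typical of the working myocardium, of the conduction system and atria, and of arterial endothelium. Mutations in the human desmosome genes are a known cause of arrhythmogenic cardiomyopathy.

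The libraries held 36860678 to 37344860 reads in the si-Rbm22 group and 34269042 to 35955301 in the si-Control group. Rbm22 itself had 533, 466 and 491 reads in the si-Rbm22 libraries and 798, 916 and 774 in the si-Control-labelled libraries, 0.583 of the level there (edgeR adjusted p = 4.22e-06). What the si-Control-labelled libraries held went against their label as cardiomyocytes. A list of 8 cardiomyocyte markers summed to 21782 to 34273 CPM (read counts relative to the TMM-scaled library total) in si-Rbm22 and to 47.0 to 54.4 CPM in the si-Control-labelled libraries, where 3 of the 8, Pln, Myl3 and Mybpc3, had no read. A list of 6 skeletal myoblast markers, Myod1 and Cdh15 among them, ran the other way, at 0.0266 to 0.472 CPM in si-Rbm22 and 545 to 553 CPM in the si-Control-labelled libraries. Chrna1 alone stood at 337 CPM there, and Pax7, with 3, 0 and 3 reads there, was not tested. The 6 fibroblast markers summed to 3903 to 4094 CPM in si-Rbm22 and 16121 to 17719 CPM in the si-Control-labelled libraries. By the edgeR test, 2 of these were higher in si-Rbm22, 3 lower and 1 did not pass. The siRNA and this difference in content cannot be told apart for Rbm22 or for any gene below. In bulk RNA, fewer cells of a type and less RNA per cell cannot be told apart either.

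All 10 genes were higher in the si-Rbm22 libraries, and for each of them every si-Rbm22 library lay above every library labelled si-Control. By edgeR's quasi-likelihood test all 10 passed at an adjusted p (Benjamini-Hochberg over all genes tested) under 0.05 as higher. In the same fit 82% of the 14621 genes tested passed in either direction, 43.1% of the genes tested passed as higher, and 44% had every si-Rbm22 library above every other library. The median log2 fold change of the 10 genes was 5.31, against 0.05 for all genes tested. A log2 fold change of at least 2 with an adjusted p under 0.05 was found for 9 of the 10, and for 17.2% of all genes tested. The size of the difference was uneven: it was smallest for Gjc1 and for the genes Gja1, Pkp2 and Jup, which had many reads in both groups, and largest for Dsp, Dsg2 and Dsc2, which had few or none in the si-Control-labelled libraries.

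**Figure D1:**
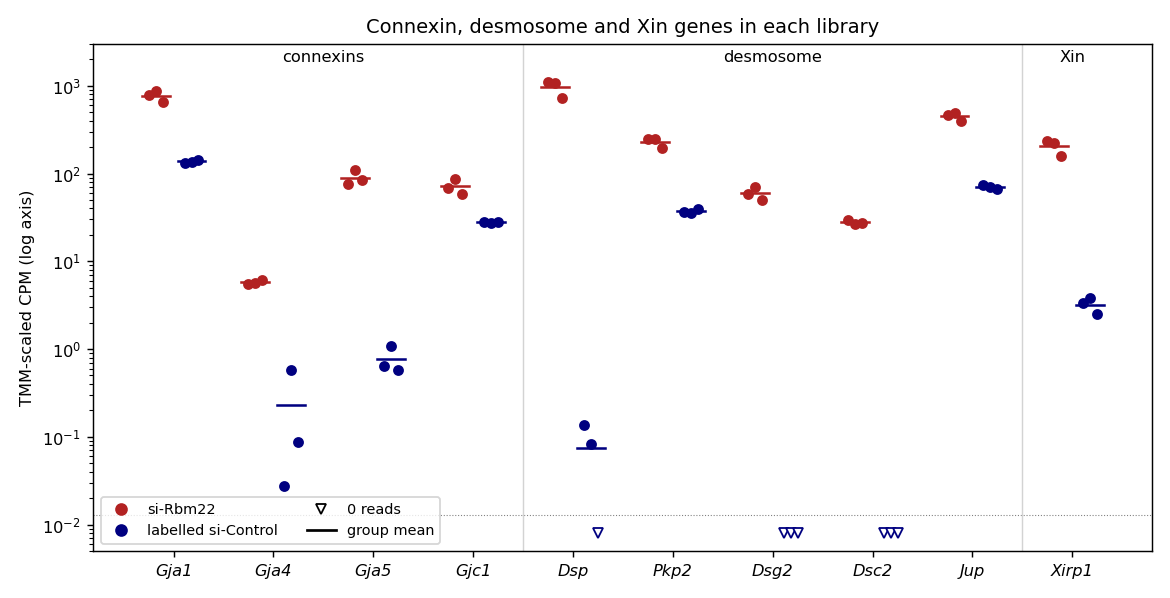
TMM-scaled CPM of each gene on a log axis, 1 point per library, with si-Rbm22 in red on the left, the si-Control-labelled libraries in blue on the right and a line at each group mean. Open triangles mark libraries with 0 reads, which are all 3 libraries labelled si-Control for Dsg2 and Dsc2 and 1 of them for Dsp.

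Among the connexins, Gja1, the main gap junction protein of ventricular muscle (ENSMUSG00000050953; GRCm38 chromosome 10, 56377330 to 56402513, plus strand), was the most abundant in every library. It had 792, 873 and 657 CPM in the si-Rbm22 libraries and 133, 134 and 144 CPM in the si-Control-labelled libraries. The lowest si-Rbm22 library thus held several times the reads of the highest library of the other group. The means were 774 ± 109 CPM in si-Rbm22 and 137 ± 5.96 CPM in the si-Control-labelled libraries (SD, n = 3 each), a log2 fold change of 2.50 (SE 0.095, edgeR adjusted p = 3.28e-10). With 4833 to 5004 reads in each library labelled si-Control, Gja1 mRNA was well covered where cardiomyocyte transcripts were few.

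Gja5, the connexin of atrial muscle, the conduction system and arterial endothelium (ENSMUSG00000057123; chromosome 3, 96904693 to 97077416, plus strand), stood at 75.7, 109 and 83.7 CPM in si-Rbm22. In the si-Control-labelled libraries it had 0.635, 1.07 and 0.576 CPM, from 23, 39 and 20 reads. The groups were separated by a log2 fold change of 6.86 (SE 0.220, edgeR adjusted p = 1.51e-09), a 117-fold ratio of means. Gja5 shares 165 bp of exon with Gpr89 on the opposite strand, and the strand setting of the counting is not given in the sources used here, so reads of that stretch cannot be assigned. Gpr89 itself had 1001 to 1058 reads in si-Rbm22 and 918 to 979 in the si-Control-labelled libraries. The same limit holds for Dsp, which shares 499 bp of exon with Gm10129 on the opposite strand. It holds too for Dsg2, which shares 330 bp with Gm16090.

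A connexin with many reads and one with few in the si-Control-labelled libraries, Gja1 and Gja5, are shown here by their start regions, 250 bases before to 50 after the RefSeq start, written 5′ to 3′ on the gene's strand (GRCm38.p6). Gja1 lies at chr10:56377050-56377349 (plus strand) and Gja5 at chr3:97032152-97032451 (plus strand), and capitals mark the motifs searched. For Gja5 the RefSeq start lies inside the gene span given above, which opens at the far upstream exon of a longer GENCODE transcript.
Gja1: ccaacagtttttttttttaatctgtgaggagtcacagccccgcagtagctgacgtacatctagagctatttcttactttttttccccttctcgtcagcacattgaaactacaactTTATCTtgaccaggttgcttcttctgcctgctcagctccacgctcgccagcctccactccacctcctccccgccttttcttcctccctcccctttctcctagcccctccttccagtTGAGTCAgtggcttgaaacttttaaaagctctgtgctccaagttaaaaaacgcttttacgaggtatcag
Gja5: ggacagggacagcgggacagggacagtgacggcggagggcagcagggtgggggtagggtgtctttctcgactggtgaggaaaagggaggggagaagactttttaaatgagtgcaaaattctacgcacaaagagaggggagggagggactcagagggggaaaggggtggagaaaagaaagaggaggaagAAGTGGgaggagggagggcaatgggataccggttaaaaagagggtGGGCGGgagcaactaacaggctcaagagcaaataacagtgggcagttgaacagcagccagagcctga
The motifs, searched on both strands, were the Sp1 box GGGCGG, the AP-1 site TGAGTCA, the GATA site AGATAA, the Nkx2-5 site AAGTGG and the T-box site GGTGTGA. Gja1 held AP-1 letters 19 bases before its start and GATA letters, on the minus strand, 135 bases before it. Gja5 held Sp1 letters 17 bases and Nkx2-5 letters 62 bases before its start. Of 32851 promoter windows of the same length, 35.7% hold the Sp1 letters, 5.20% those of AP-1, 11.2% those of GATA, 16.9% those of Nkx2-5 and 3.98% those of the T-box site. These matches describe the letters only. Promoter windows were matched for 5 of the 10 genes: Gja1, Gja4, Gja5, Dsp and Jup.

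Gjc1, the connexin of the early heart and of nodal tissue (ENSMUSG00000034520; chromosome 11, 102799579 to 102819700, minus strand), differed least of the 10. It was at 68.4, 87.2 and 58.1 CPM in si-Rbm22 and at 28.0, 27.3 and 27.8 CPM in the si-Control-labelled libraries. The si-Rbm22 libraries spread more widely than the others, but all 3 lay above them (log2 fold change 1.36, SE 0.128, edgeR adjusted p = 2.89e-06). Gja4, a connexin of arterial endothelium (ENSMUSG00000050234; chromosome 4, 127311421 to 127314039, minus strand), was the scarcest, at 5.46, 5.72 and 6.15 CPM in si-Rbm22. In the si-Control-labelled libraries it had 1, 21 and 3 reads, or 0.0276, 0.579 and 0.0864 CPM. Its log2 fold change was 4.61 (SE 0.539, edgeR adjusted p = 1.22e-05), and 1 library weighed on it: without si-Control replicate 2, which held the 21 reads, it was 6.58. The ratio of summed reads was 24.8, with a 95% interval of 16.6 to 38.6 for counting error alone.

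Most markers of endothelium were, like Gja4 and Gja5, higher in si-Rbm22. The summed level of 8 endothelial markers was 291 to 337 CPM in si-Rbm22 and 4.49 to 5.68 CPM in the si-Control-labelled libraries, where Tie1 and Emcn had no read. All 8 passed the test as higher, beside 43.1% of all genes tested. Of 6 arterial markers, 4 passed as higher and 1, Hey1, as lower. Their sums were 94.4 to 105 CPM in si-Rbm22 and 31.6 to 34.6 CPM in the si-Control-labelled libraries, where Sox17 and Gkn3 had no read. Efnb2 alone made up most of these sums, at 93.7 ± 4.13 CPM in si-Rbm22 and 30.0 ± 1.48 CPM in the si-Control-labelled libraries. Gkn3 had 1, 16 and 0 reads in si-Rbm22 and was not tested. The part of endothelial RNA in the connexin values was not tested.

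**Figure D2:**
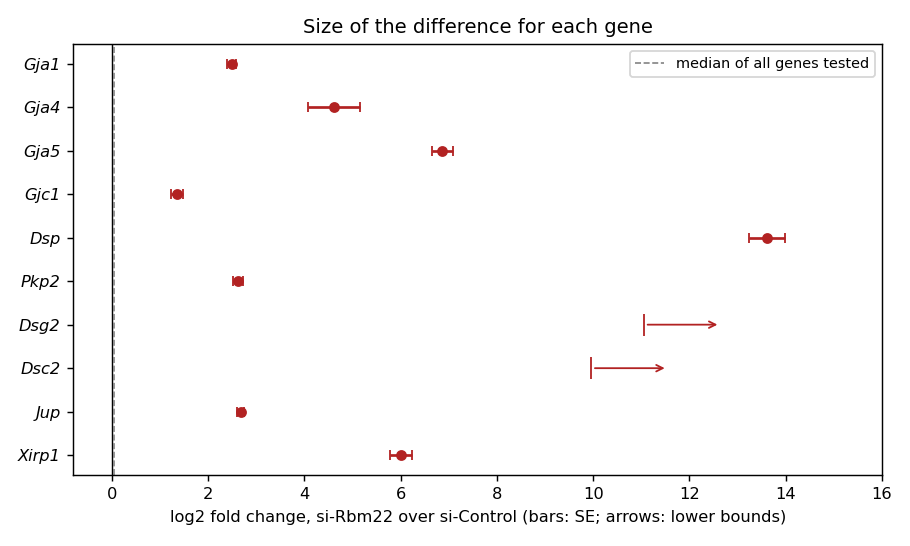
Log2 fold change of each gene, si-Rbm22 over si-Control, with the SE as a bar and the median of all genes tested as a dashed line. Gja1, Gjc1, Pkp2 and Jup lie between 1.36 and 2.67, and arrows for Dsg2 and Dsc2 start at their lower bounds, 11.06 and 9.96.

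The mix of connexins differed between the groups while Gja1 led in both. Levels per kilobase of exon allow genes to be compared within a library, and the share of each connexin in the sum of the 4 needs no scaling between libraries. Gja1 made up 72.0%, 68.2% and 68.2% in si-Rbm22 and 69.4%, 68.7% and 71.1% in the si-Control-labelled libraries. Those ranges overlap, and the mean difference of -0.26 percentage points (exact permutation test, two-sided, p = 0.8) changed sign with the setting. Gja5 made up 12.3%, 15.1% and 15.5% in si-Rbm22 and 0.590%, 0.980% and 0.507% in the si-Control-labelled libraries. Gjc1 ran the other way, with 12.7%, 14.0% and 12.4% in si-Rbm22 and 29.9%, 28.6% and 28.1% in the si-Control-labelled libraries, although its CPM was higher in si-Rbm22. Gja4 took 3.02%, 2.72% and 3.89% in si-Rbm22 and 0.0874%, 1.80% and 0.259% in the si-Control-labelled libraries. For Gja4, Gja5 and Gjc1 the groups did not overlap, and each reached p = 0.1 in the exact permutation test, the smallest that 3 against 3 samples allow. The shares of the 4 connexins are parts of 1 sum, so a larger share of Gja5 leaves less for the others. With lengths taken from the principal transcript in place of all annotated exons, a setting chosen after seeing the data, Gja5 averaged 9.40% in si-Rbm22 and 0.443% in the si-Control-labelled libraries, and Gja4 1.14% in si-Rbm22 and 0.249% in the si-Control-labelled libraries.

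Among the desmosome genes, those for the cadherins and for desmoplakin were nearly or wholly without reads in the si-Control-labelled libraries. Dsp, which encodes desmoplakin (ENSMUSG00000054889; chromosome 13, 38151294 to 38198577, plus strand), had 40281, 39056 and 27500 reads in si-Rbm22 and 5, 3 and 0 reads in the si-Control-labelled libraries. This was 1100, 1085 and 732 CPM in si-Rbm22 and 0.138, 0.0827 and 0 CPM in the si-Control-labelled libraries. The ratio of summed reads was 13000, with a 95% counting interval of 6597 to 30112 (log2 fold change 13.61, SE 0.379, edgeR adjusted p = 4.81e-08). That SE is smaller than the counting error of 8 reads, and without si-Control replicate 1 the log2 fold change was 14.37.

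Dsg2, the main desmoglein of the heart (ENSMUSG00000044393; chromosome 18, 20558074 to 20604521, plus strand), had 2150, 2524 and 1885 reads in si-Rbm22, or 58.7, 70.1 and 50.2 CPM, and no read in any library labelled si-Control. Against a floor of 3 counts summed over those libraries (0.028 CPM) it was at least 2128-fold higher (edgeR adjusted p = 1.15e-09). Dsc2, its partner desmocollin (ENSMUSG00000024331; chromosome 18, 20030633 to 20059554, minus strand), had 29.7, 26.5 and 27.4 CPM in si-Rbm22 and likewise no read in the other group, so it was at least 996-fold higher (edgeR adjusted p = 2.45e-12). The 3 si-Rbm22 libraries lay closer together for Dsc2 than for Dsg2. Both genes sit in the desmosomal cadherin cluster of chromosome 18.

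The armadillo plaque genes were present in both groups. Jup, which encodes plakoglobin, also a partner of classical cadherins (ENSMUSG00000001552; chromosome 11, 100368958 to 100397763, minus strand), had 466, 492 and 396 CPM in si-Rbm22 and 74.6, 70.8 and 66.8 CPM in the si-Control-labelled libraries. Its log2 fold change was 2.67 (SE 0.083, edgeR adjusted p = 4.11e-12). Pkp2, which encodes plakophilin of the heart (ENSMUSG00000041957; chromosome 16, 16213318 to 16272712, plus strand), had 246, 247 and 194 CPM in si-Rbm22 and 36.9, 35.2 and 39.5 CPM in the si-Control-labelled libraries. It differed by a log2 fold change of 2.62 (SE 0.096, edgeR adjusted p = 2.32e-10). For both genes the groups were far apart beside their spread, and the ratios of means, 6.39 for Jup and 6.15 for Pkp2, were close to the 5.64 of Gja1.

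The start regions of Dsp and Jup are shown as examples of a plaque gene with almost no reads and one with many in the si-Control-labelled libraries. They lie at chr13:38151044-38151343 (plus strand) and chr11:100397741-100398040 (minus strand, written on the gene's strand), and capitals mark the same motifs.
Dsp: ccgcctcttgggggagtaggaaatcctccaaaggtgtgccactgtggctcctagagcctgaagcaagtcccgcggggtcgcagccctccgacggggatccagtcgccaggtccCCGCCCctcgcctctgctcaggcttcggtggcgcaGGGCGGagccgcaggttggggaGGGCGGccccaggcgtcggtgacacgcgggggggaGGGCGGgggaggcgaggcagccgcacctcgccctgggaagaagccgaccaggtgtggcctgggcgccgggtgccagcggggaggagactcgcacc
Jup: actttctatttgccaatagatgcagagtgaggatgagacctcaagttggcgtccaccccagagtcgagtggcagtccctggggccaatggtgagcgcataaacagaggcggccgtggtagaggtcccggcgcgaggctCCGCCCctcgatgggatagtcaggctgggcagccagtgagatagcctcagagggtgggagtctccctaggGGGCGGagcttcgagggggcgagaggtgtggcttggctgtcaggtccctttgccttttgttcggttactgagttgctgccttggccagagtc
Dsp held 4 matches to the Sp1 box, 137, 102, 80 and 45 bases before its start, and Jup held 2, at 112 and 42 bases. Neither held letters of the other 4 motifs. The Dsp window held 27 CpG and 73% G and C, and the Jup window 14 CpG and 60.7%, where the median window of all promoters held 7 CpG. The windows of Gja1 and Gja5 held 8 and 7 CpG.

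Within the summed level of the 5 desmosome genes per kilobase, Dsp made up 46.5%, 45.2% and 41.0% in si-Rbm22 and 0.0772%, 0.0487% and 0% in the si-Control-labelled libraries. Jup took 29.6%, 30.8% and 33.3% in si-Rbm22 and 62.7%, 62.6% and 58.5% in the si-Control-labelled libraries. Pkp2 took 18.8%, 18.5% and 19.6% in si-Rbm22 and 37.3%, 37.4% and 41.5% in the si-Control-labelled libraries. In the si-Control-labelled libraries, Jup and Pkp2 thus made up nearly the whole sum. Dsg2 and Dsc2 were minor in si-Rbm22, at 2.90% to 3.41% and 2.02% to 2.81%. The groups did not overlap for any of the 5 shares, each with p = 0.1 in the two-sided exact permutation test, the smallest that can be reached. The sums themselves were 185 to 248 CPM per kilobase in si-Rbm22 and 17.6 to 18.5 in the si-Control-labelled libraries. With principal transcript lengths, a setting chosen after seeing the data, Dsp averaged 29.9% in si-Rbm22 and 0.0217% in the si-Control-labelled libraries. Jup then averaged 42.0% in si-Rbm22 and 63.3% in the si-Control-labelled libraries. Which of Dsp and Jup led in si-Rbm22 thus rests on the length used.

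**Figure D3:**
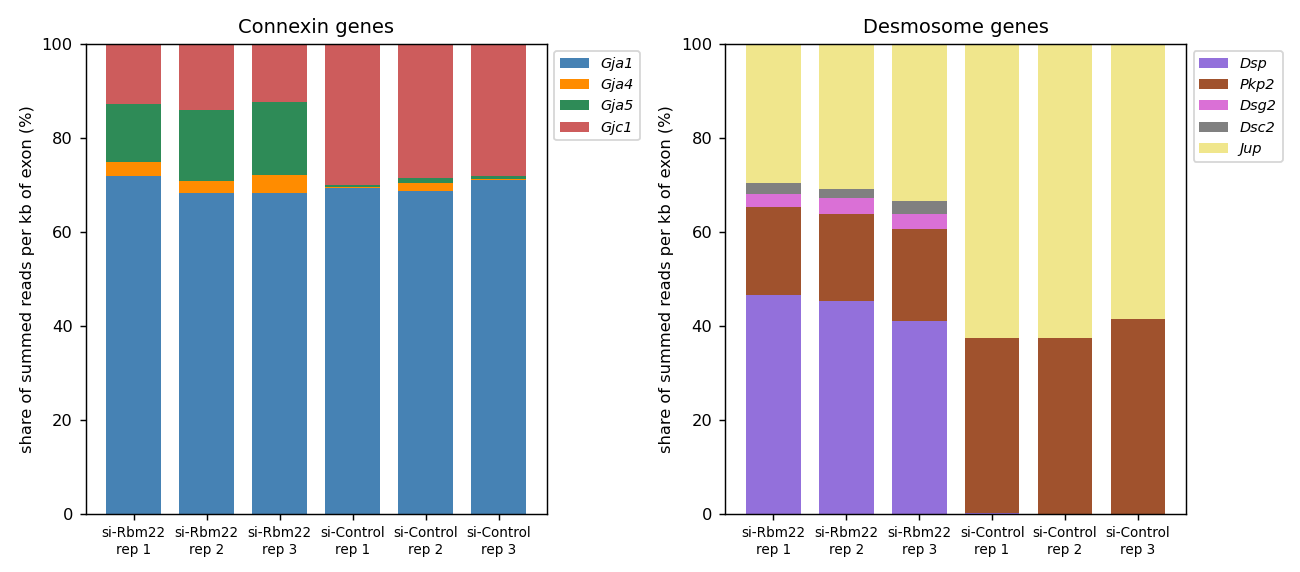
Share of each gene in the summed reads per kilobase of exon, in percent, for the 4 connexins (left) and the 5 desmosome genes (right), 1 bar per library with the si-Rbm22 libraries on the left. Gja5 is a visible part of the connexin bars in si-Rbm22, at 12.3% to 15.5%, and Dsp of the desmosome bars, at 41.0% to 46.5%; both are near 0 in the si-Control-labelled libraries.

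Xirp1, the Xin gene, whose product binds actin at the disc and is known as a target of the muscle factor MEF2 (ENSMUSG00000079243; chromosome 9, 120013755 to 120023598, minus strand), had 238, 225 and 160 CPM in si-Rbm22. In the si-Control-labelled libraries it had 3.34, 3.83 and 2.48 CPM, from 121, 139 and 86 reads. The ratio of means was 64.6 (log2 fold change 6.01, SE 0.220, edgeR adjusted p = 9.09e-08). Its relative Xirp2, the other Xin-repeat gene, had 23.1 to 26.5 CPM in si-Rbm22 and no read in any library labelled si-Control, at least 886-fold higher.

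Ordered by level per kilobase of all annotated exons, the si-Rbm22 libraries held most Dsp, at 101 ± 21.5 CPM per kilobase (SD, n = 3), followed by Gja1 at 75.5 ± 10.6, Jup at 70.2 ± 7.69, Pkp2 at 42.7 ± 5.68 and Xirp1 at 35.6 ± 7.09. Below them stood Gja5 at 15.6 ± 2.99, Gjc1 at 14.2 ± 2.95, Dsg2 at 7.22 ± 1.21, Dsc2 at 5.28 ± 0.318 and Gja4 at 3.43 ± 0.207. The ranges over the libraries overlapped between Dsp and Gja1, Gja1 and Jup, and Pkp2 and Xirp1, but within each of the 3 libraries these pairs kept that order. Gja5 and Gjc1 overlapped too, with Gja5 above Gjc1 in 2 of the 3 libraries, and do not differ beyond that spread. Per kilobase of the principal transcript, Gja1 came first at 243 ± 34.3 and Jup second at 141 ± 15.5, ahead of Dsp at 101 ± 21.7, so the order among those 3 rests on the length used. In the si-Control-labelled libraries the order was Gja1 at 13.4 ± 0.581, Jup at 11.0 ± 0.608, Pkp2 at 6.95 ± 0.405, Gjc1 at 5.54 ± 0.0777 and Xirp1 at 0.551 ± 0.117, with no overlap between these neighbours and the other 5 at 0.137 or less on average. Per kilobase of the principal transcript, the ranges of Pkp2 and Gjc1 overlapped there, with Pkp2 above Gjc1 in each of the 3 libraries.

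The si-Rbm22 libraries were not alike among themselves. Replicate 3 held 0.670 of the mean Dsp level of replicates 1 and 2, 0.694 of Xirp1, 0.747 of Gjc1, 0.779 of Dsg2, 0.786 of Pkp2, 0.789 of Gja1, 0.827 of Jup and 0.908 of Gja5. Dsc2 at 0.975 and Gja4 at 1.10 were close to even. Beside these, the 8 cardiomyocyte markers ranged from 0.557 (Myh6) to 0.858, with a median of 0.715. The 8 endothelial markers ranged from 0.594 to 1.16, the 7 mesothelial and epicardial markers from 0.919 to 1.15, and the 6 fibroblast markers from 0.994 to 1.58. The part of cell content in the spread of the junction genes was not tested. No call among the 10 rested on replicate 3: all 10 passed without it.

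**Figure D4:**
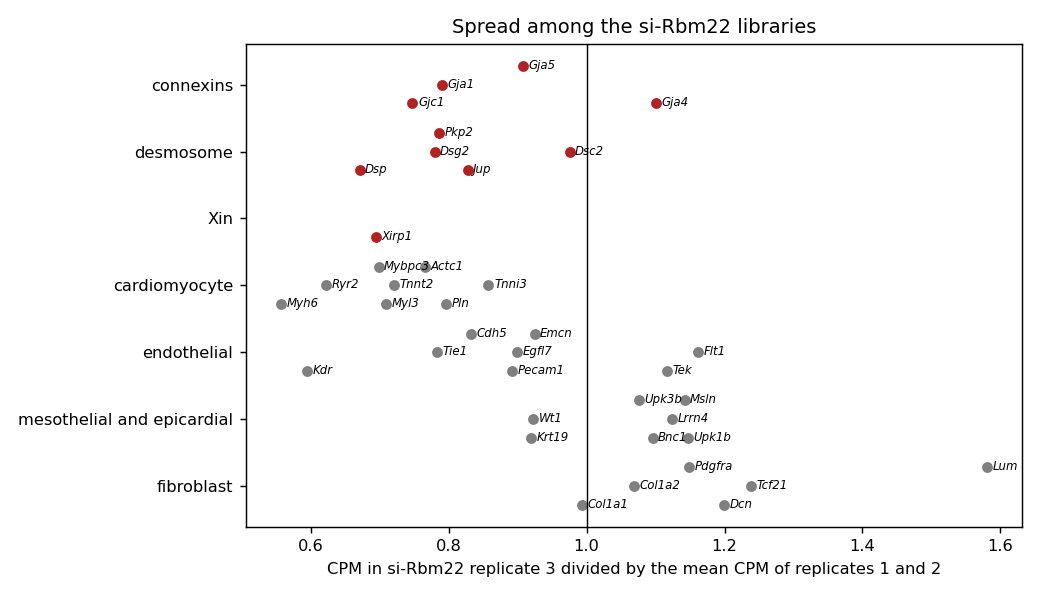
CPM in si-Rbm22 replicate 3 divided by the mean of replicates 1 and 2, 1 point per gene, for the junction genes (red) and for 4 marker lists (grey). Of the junction genes, Dsp and Xirp1 lie lowest, at 0.670 and 0.694, and Dsc2 and Gja4 lie near 1. The marker ranges are 0.557 to 0.858 for cardiomyocyte, 0.594 to 1.16 for endothelial, 0.919 to 1.15 for mesothelial and epicardial, and 0.994 to 1.58 for fibroblast.

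Epithelial and mesothelial cells build desmosomes too, and most of their tested markers were higher in si-Rbm22, as were 43.1% of all genes tested. Among the si-Rbm22 libraries, replicate 3 over the mean of replicates 1 and 2 had a median of 0.786 for the desmosome genes. That median was 1.10 for the mesothelial and epicardial markers and 0.869 for the simple epithelial markers. The 7 mesothelial and epicardial markers analysed summed to 2077 to 2267 CPM in si-Rbm22 and 50.2 to 53.7 CPM in the si-Control-labelled libraries, where Upk3b and Upk1b had no read, and all 7 passed as higher. Of 4 simple epithelial markers, the keratin genes Krt8 and Krt18 carried nearly all of the sum, 243 to 289 CPM in si-Rbm22 and 0 to 0.0276 CPM in the si-Control-labelled libraries. Epcam, a defining marker of epithelium, was near 0 in si-Rbm22, with 4 to 14 reads, and Cdh1 had 34 to 70. The 4 stratified epithelial markers summed to 71.5 to 93.5 CPM in si-Rbm22 and 19.5 to 22.1 CPM in the si-Control-labelled libraries. The keratin gene Krt14 and Sfn passed as higher, by log2 fold changes of 1.83 and 2.80, and Trp63 as lower (-1.80), while Krt5 had 0, 0 and 6 reads in si-Rbm22, none in the si-Control-labelled libraries, and was not tested. The part of mesothelial and epithelial RNA in the desmosome values was not tested.

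Of 13 other desmosomal genes, 7 had enough reads to be tested, of which 5 were higher, 1 was lower and 1 did not pass. For all genes tested, the share passing as higher was 43.1%. Perp, a membrane protein of desmosomes, was at 244 ± 7.72 CPM in si-Rbm22 and 3.55 ± 0.127 CPM in the si-Control-labelled libraries (SD, n = 3 each; log2 fold change 6.10, edgeR adjusted p = 2.22e-16). Pkp4, an armadillo protein of cell contacts, was higher by 1.68 on the log2 scale. Pkp3, a plakophilin of epithelia, was higher by 5.40, at 2.90 ± 0.0776 CPM in si-Rbm22. Pkp1, the plakophilin of stratified epithelia, was lower: it had 105, 64 and 78 reads in si-Rbm22 and 2632, 2655 and 2460 in the si-Control-labelled libraries (log2 fold change -5.01, SE 0.121, edgeR adjusted p = 1.27e-13). Pkp1 and Pkp2 thus differed in opposite directions between the same libraries. Ppl, which encodes periplakin, stood at 35.4 ± 5.16 CPM in si-Rbm22 and 40.4 ± 1.33 CPM in the si-Control-labelled libraries and did not pass, though it passed as lower without a filter, with the replicate block and without si-Rbm22 replicate 2. Dsc3, a desmocollin of stratified epithelia, had 46, 90 and 60 reads in si-Rbm22 and none in the si-Control-labelled libraries, at least 63.6-fold higher (edgeR adjusted p = 1.77e-06). The other skin desmosomal cadherins Dsg1a, Dsg1c, Dsg3, Dsg4 and Dsc1 had at most 14 reads in any library.

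Of the 17 other connexins and pannexins reported here, 5 had enough reads to be tested, and these were higher. The share passing as higher was 43.1% over all genes tested. The higher call of Panx1 (log2 fold change 0.26, edgeR adjusted p = 0.0341) was lost without a filter on low counts and without any 1 library other than si-Rbm22 replicate 3. Gja3, best known from the eye lens, had 471, 538 and 376 reads in si-Rbm22 and none in the si-Control-labelled libraries, at least 449-fold higher. Gjb5, an epithelial connexin, was at 13.2 ± 1.57 CPM in si-Rbm22 and 0.854 ± 0.383 CPM in the si-Control-labelled libraries. Panx2, a pannexin, was at 2.30 ± 0.303 CPM in si-Rbm22 and had no read in the other group, at least 82.1-fold higher. Summed over the 11 genes analysed, this list reached 41.6 to 45.6 CPM in si-Rbm22 and 11.6 to 12.8 CPM in the si-Control-labelled libraries. Gja1 alone was far above that in every library.

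Genes of the adherens junction of the disc differed in both directions, as did all genes tested. Of 9 tested, 5 were higher, 3 lower and 1 did not pass. Over all genes tested, 43.1% passed as higher and 82% in either direction. Cdh2, the classical cadherin of the disc, was at 627 ± 32.7 CPM in si-Rbm22 and 101 ± 1.97 CPM in the si-Control-labelled libraries (log2 fold change 2.64, SE 0.061, edgeR adjusted p = 6.07e-14). Nectin2, an adhesion receptor, was higher by 2.35 and Ctnna1, which encodes an alpha-catenin, by 1.14 on the log2 scale. Ctnna3, another alpha-catenin gene, had 1333, 1051 and 724 reads in si-Rbm22. It had none in the si-Control-labelled libraries and was at least 1008-fold higher (edgeR adjusted p = 9.72e-06). The catenin genes Ctnnd1 and Ctnnb1 and the vinculin gene Vcl were lower, with log2 fold changes of -0.70, -0.15 and -0.34. Ctnnb1, which encodes beta-catenin, the relative of plakoglobin, was thus at 639 ± 31.1 CPM in si-Rbm22 and 711 ± 9.64 CPM in the si-Control-labelled libraries (edgeR adjusted p = 0.0214), where Jup differed 6.39-fold. The lower call of Ctnnb1 was lost under the filter of 10 CPM in 3 libraries (edgeR adjusted p = 0.0722) and without si-Control replicate 1 (edgeR adjusted p = 0.0533).

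Among 18 genes for scaffold and membrane proteins of the disc, 14 were higher, 3 lower and 1 did not pass. Beside this, 43.1% of all genes tested passed as higher. Cxadr, the virus receptor that localizes to the disc, was at 271 ± 9.22 CPM in si-Rbm22 and 1.47 ± 0.257 CPM in the si-Control-labelled libraries (log2 fold change 7.52, SE 0.097). Csrp3, the muscle LIM protein gene, was higher by 6.12 and Nexn, which encodes the actin-binding nexilin, by 3.01. Tmem43, a nuclear envelope gene of human arrhythmogenic cardiomyopathy, was lower (log2 fold change -1.30), as was Bves, a Popeye family gene (-0.34). Popdc2, of the same family, was higher, at 440 ± 66.5 CPM in si-Rbm22 and 0.361 ± 0.332 CPM in the si-Control-labelled libraries (log2 fold change 10.23). The gene Des, which encodes desmin, the filament to which desmoplakin binds, was lower (-0.50). Des was at 449 ± 80.1 CPM in si-Rbm22 and 633 ± 34.6 CPM in the si-Control-labelled libraries, whereas Dsp had 8 reads in all in the si-Control-labelled libraries.

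Regulators known to act on connexin genes differed in both directions, with 8 higher and 4 lower of 12 tested. All genes tested did so too, with 43.1% passing as higher and 82% in either direction. Tbx5, an activator of Gja5 in mouse heart, was at 55.4 ± 5.67 CPM in si-Rbm22 and 0.186 ± 0.0298 CPM in the si-Control-labelled libraries (log2 fold change 8.19, SE 0.161). The cardiac factor genes Tbx20 and Gata4 were higher in si-Rbm22 by 10.09 and 3.91 on the log2 scale. Tbx3, a repressor of Gja1 and Gja5 in the conduction system, was lower, at 5.38 ± 0.679 CPM in si-Rbm22 and 12.9 ± 1.20 CPM in the si-Control-labelled libraries (log2 fold change -1.27, edgeR adjusted p = 1.29e-06). Foxo1 and Jun, a part of AP-1, were lower too, with log2 fold changes of -1.07 and -0.65. Tbx2, another T-box gene of the list, went the other way from Tbx3. It was at 2.39 ± 0.235 CPM in si-Rbm22 and 0.672 ± 0.0574 CPM in the si-Control-labelled libraries (log2 fold change 1.83, edgeR adjusted p = 7.90e-05). Whether any of these factors acted on the connexins was not tested.

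**Figure D5:**
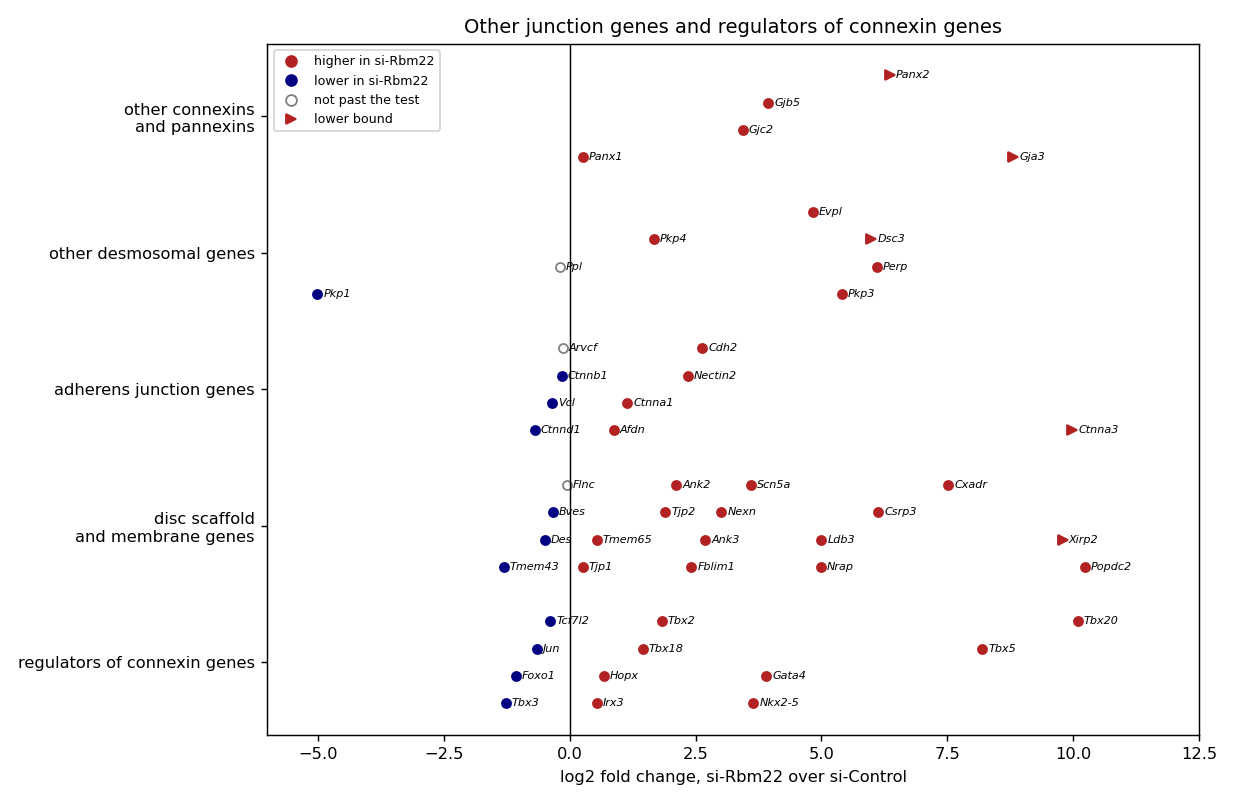
Log2 fold change, si-Rbm22 over si-Control, of the other junction genes and of regulators of connexin genes that were tested, by list, with triangles at the lower bound of genes without reads in the si-Control-labelled libraries. Pkp1 stands alone at -5.01, and most of the disc scaffold genes lie above 0.

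Over the 6 libraries, the genes whose log2 level (CPM plus a pseudocount of 1) followed Gja1 most closely by Pearson correlation were Mlxipl, Ppm1j and Fuom, each at 0.9998 or above. For Dsp they were Myh6, the alpha myosin heavy chain gene, Fam129a and Mypn, a sarcomere gene, each at 0.9999 or above. Such values describe the group difference as much as the gene: 1495 of 11154 genes correlated with Gja1, and 1780 with Dsp, at more than 0.99.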

How the data were processed

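TRIzol total RNA went into VAHTS Universal V6 libraries, per the labels' protocols. Per the submitters' processing notes, the tools were HISAT2, HTSeq, fastp and DESeq2 and the build GRCm38; their versions, the annotation release and the strand setting were not given in the sources used. The authors' deposited table holds raw read counts per Ensembl gene. Of 18951 IDs, 18868 matched GENCODE M21 (GRCm38), the source of symbols, positions and exon lengths. Groups came from the sample titles. The labels call samples biological replicates without naming separate isolations, so p-values reflect only how these samples spread. No replicate pair agreed within sampling noise (chi-square per degree of freedom at least 4.52).

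Counts were tested with edgeR 4.0.16 in R 4.3.3 (TMM, filterByExpr, robust quasi-likelihood fit, group only). This fit was also run on simulated counts in which few genes changed, unlike in these data. That run does not show how TMM scaling or error rates hold here. The SE is the absolute log2 fold change over the square root of F. Counting intervals (95%, exact) and floors (3 counts per group) cover counting error only, since the reads carry no molecular identifiers. Shares were tested by exact permutation. Alternatives were RLE scaling, other filters, DESeq2 1.42.0, limma-voom (limma 3.58.1), a replicate block, mitochondrial transcripts left out, each library left out, and other lengths. Named genes were the members, the 3 smallest p per list and direction, and the 3 closest correlations; other list genes named were chosen after their values were seen, and some genes of the list of other connexins are not reported here. The 10 genes, the lists and the motifs were chosen with earlier results of these data, or the sequences, known.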

Additional observations from a re-analysis of the deposited data

How the results depend on the processing

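All 10 junction genes stayed higher and past the test in every one of the 13 alternative settings that tested them, 129 results in all. Gja4 was not tested under the filter of 10 CPM in 3 libraries, which left 9 members called, and there the other connexins and the other desmosomal genes had 3 and 2 genes higher. The median log2 fold change of the members was 6.05 under that filter, 5.71 with limma-voom and 5.38 with the replicate block, and ran from 5.03 to 6.36 with 1 library left out, since it rests on Gja4 and Xirp1. The other desmosomal genes had 2 lower without a filter, with the replicate block, and at most without si-Rbm22 replicate 2 (range 1 to 2 over left-out libraries), the gene gained being Ppl. The Gja1 share of connexins reversed, to 1.75 percentage points with principal transcript lengths, and ran from -1.51 to 0.43 with 1 library left out.

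Samples with the same replicate number did not deviate together (correlations of -0.015, 0.024 and 0.059), so the block, which called 11945 genes against 11983 without it, pairs nothing known; it changed no other call named here. The libraries labelled si-Control could not be left out as a group. Few reads in the si-Control-labelled libraries limit Gja4 (1, 21 and 3) and Dsp (5, 3 and 0). Dsg2 and Dsc2 had no read there, so their fold changes are lower bounds only.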
